A study of Mus musculus with 4 samples.

Results

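AMP-activated protein kinase (AMPK) is built from 1 alpha, 1 beta and 1 gamma subunit, and 10 genes of its core and of its upstream kinase complex were followed here in mouse muscle labelled Nf1-KO or Het. They are the 7 subunit genes (Prkaa1, Prkaa2, Prkab1, Prkab2, Prkag1, Prkag2 and Prkag3) and 3 genes of the complex that activates AMPK: Stk11, which encodes the kinase LKB1, its pseudokinase partner Strada and the scaffold Cab39. The 10 were chosen by name, each has a single row in the deposited tables, and they stand among 32868 gene names.

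The tissue was the tibialis anterior, a mostly fast muscle at the front of the shin, of C57BL/6 mice at postnatal day 21. The Het group carried the genotype Nf1flox/+/Myf5+ and the Nf1-KO group Nf1flox/flox/Myf5+, with 2 libraries of total RNA each. Myf5+ is taken to stand for a driver of Cre recombinase that is active in muscle precursors, so nerve, vessel and immune cells in the muscle would keep Nf1, and both groups carry at least 1 floxed allele and the driver. The labels do not say whether the libraries came from separate animals, and p-values then measure only the spread between these libraries, which may be technical.

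AMPK senses falling cellular energy. The alpha subunit is the kinase, the beta subunit holds the complex together and binds glycogen, and the gamma subunit binds AMP, ADP and ATP. LKB1, held active by Strada and Cab39, phosphorylates the activation loop of alpha, and in muscle AMPK then promotes glucose uptake and fatty acid oxidation. Skeletal muscle is rich in the isoforms encoded by Prkaa2 and Prkab2, and Prkag3 is known as an isoform largely restricted to fast glycolytic muscle.

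Library depth, estimated from the steps between low values of short genes, was 36600000 and 58100000 reads in Het and 47000000 and 51000000 reads in Nf1-KO, and the groups thus overlapped in depth. Nf1, the gene that checks the labels, was 1.09 and 1.01 RPKM in Het and 0.89 and 0.85 RPKM in Nf1-KO, where RPKM is a read count divided by gene length and by library depth. Its log2 fold change was -0.19 (limma adjusted p = 0.036), and the call was lost with values not scaled between libraries (-0.13, limma adjusted p = 0.094) and with any 1 of the 4 libraries left out (limma adjusted p 0.054 to 0.16). With 0.1 instead of 1 added to RPKM before the log, the Nf1 change was -0.34 (limma adjusted p = 0.04). The authors' deposited table gave -0.38 for Nf1 (authors' DESeq2 adjusted p 0.0026). The 6 skeletal muscle markers summed to 50200 to 50400 RPKM in Het and 44900 to 45200 RPKM in Nf1-KO, and the tissue thus matched skeletal muscle. These markers do not tell the tibialis anterior from another muscle. Of the 6 markers 5 were lower in Nf1-KO and 1, Mb, was higher (log2 fold change 0.70). Among the 10690 tested genes, limma called 50.5% at an adjusted p below 0.05 (23.6% higher and 26.8% lower in Nf1-KO). With values as deposited and not scaled, 35.2% were higher and 17.6% lower, and the median log2 fold change moved from -0.01 to 0.07.

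Two-sided limma tests on log2(RPKM + 1) called 8 of the 10 genes, 3 higher and 5 lower, against the 50.5% of all tested genes given above. The median log2 fold change of the 10 was -0.23 (-0.14 with values not scaled), and their median absolute change was 0.26 against 0.16 over all tested genes. Most of these changes were small, and 2 genes stood out. Prkab2 and Prkag3 fell by more than 1 on the log2 scale, and 0.954% of the tested genes did so with a limma adjusted p below 0.05. By size of fall, Prkab2 ranked 33 and Prkag3 ranked 70 among the 10690. As deposited, the 2 groups did not overlap in 8 of the 10 genes, all but Prkaa1 and Prkab1, while 77.3% of all tested genes showed no overlap either; with scaled values this held for 9 of the 10 and 76.3% of all.

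**Figure D1:**
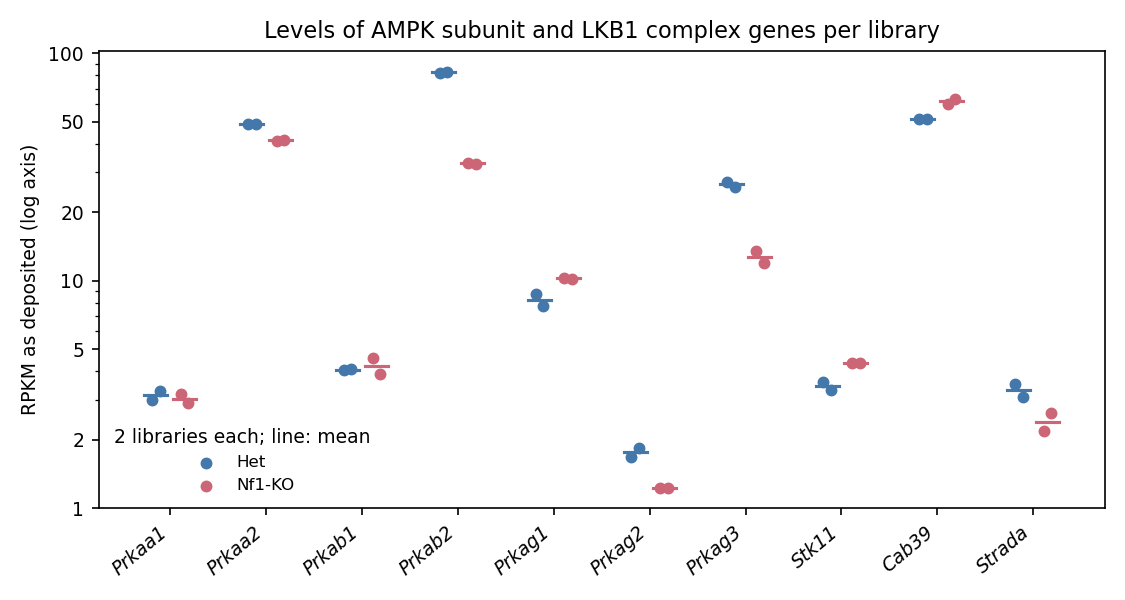
Each point is 1 library's RPKM as deposited (vertical log axis) for the 10 genes along the horizontal axis, with Het in blue, Nf1-KO in red and a line at the mean of 2 libraries. Prkab2 drops from a mean of 82.6 to 32.9 RPKM and Prkag3 from 26.6 to 12.7 RPKM, while Prkaa1 and Prkab1 overlap between the groups.

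The stretches of 250 bases before the transcription start of Prkab2, of Prkag3 and of Prkag1 are shown because the first 2 genes had the largest falls of the set and Prkag1 encodes another isoform of the subunit that Prkag3 encodes. They are reference sequences from RefSeq, build GRCm38.p6, written 5′ to 3′ on the strand of the gene. Their positions are chr3:97657962-97658211 (+ strand) for Prkab2, chr1:74748956-74749205 (- strand) for Prkag3 and chr15:98831509-98831758 (- strand) for Prkag1. Capitals mark matches on either strand to CANNTG, the E-box read by myogenic factors, and to GGGCGG, the GC box; the 2 motifs did not overlap each other in these windows.
Prkab2: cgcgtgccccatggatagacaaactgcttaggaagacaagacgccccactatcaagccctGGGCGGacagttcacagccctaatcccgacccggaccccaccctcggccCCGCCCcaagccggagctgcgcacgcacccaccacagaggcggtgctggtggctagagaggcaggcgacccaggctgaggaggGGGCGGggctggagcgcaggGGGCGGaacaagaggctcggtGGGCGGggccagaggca
Prkag3: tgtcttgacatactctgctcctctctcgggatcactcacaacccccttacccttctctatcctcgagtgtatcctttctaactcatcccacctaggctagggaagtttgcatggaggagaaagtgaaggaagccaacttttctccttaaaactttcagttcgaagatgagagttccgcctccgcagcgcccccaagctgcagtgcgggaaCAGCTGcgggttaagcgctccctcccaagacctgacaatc
Prkag1: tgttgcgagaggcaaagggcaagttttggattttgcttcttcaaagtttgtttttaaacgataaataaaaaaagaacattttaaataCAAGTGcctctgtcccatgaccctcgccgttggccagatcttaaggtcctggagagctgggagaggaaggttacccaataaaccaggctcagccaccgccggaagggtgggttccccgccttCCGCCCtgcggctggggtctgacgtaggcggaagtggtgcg
The proximal promoters of Prkab2 and Prkag3 were unlike in these features, and a link between the features and the falls was not tested. Prkab2 had 5 matches to GGGCGG, 0 to CANNTG and 18 CG dinucleotides, whereas Prkag3 had 0 matches to GGGCGG, 1 to CANNTG and 9 CG dinucleotides. The single match in Prkag3, CAGCTG, starts at position -40 from the transcription start. Prkag1 held 1 match to each motif and 12 CG dinucleotides. Among 32851 promoter windows of the same length, 66.2% held CANNTG and 32.7% held GGGCGG, and the median number of CG dinucleotides was 6. All 10 genes were found in the promoter table, with 12 promoters in all because Prkag2 has 3. CANNTG was present in Prkag1, Prkag2, Prkag3, Stk11 and Cab39. GGGCGG was present in Prkaa1, Prkaa2, Prkab2, Prkag1, Prkag2, Cab39 and Strada. None of the 12 windows held the consensus of the muscle factor MEF2 (2.92% of all windows), TATAAA (12.4%), the cAMP response element TGACGTCA (1.55%) or TCAAGGTCA, a site for oestrogen-related receptors (0.387%), each searched on both strands.

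The catalytic subunits were dominated by the muscle isoform, which fell slightly. Prkaa2, encoding alpha2, stood at 48.9 and 49.0 RPKM in Het and at 41.4 and 41.6 RPKM in Nf1-KO. Both Nf1-KO libraries lay below both Het libraries, at 0.848 of the Het mean. This gave a log2 fold change of -0.34 ± 0.023 (standard error; limma adjusted p = 8.3e-05), which is larger than that of 79.9% of the tested genes. Prkaa1, encoding the widely expressed alpha1, was 3 and 3.27 RPKM in Het and 3.16 and 2.89 RPKM in Nf1-KO. These values overlapped, and the log2 fold change of -0.12 (95% interval -0.27 to 0.03) stayed short of the threshold (limma adjusted p = 0.15). Prkaa2 therefore made up 94.0% ± 0.34 of the summed alpha RPKM in Het and 93.2% ± 0.42 in Nf1-KO (SD, n = 2). An exact permutation test of that share gave p = 0.33, the smallest that 2 libraries against 2 can give.

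The beta subunits showed the largest fall. Prkab2, encoding beta2, was the most abundant of the 10 genes in Het, at 82.0 and 83.3 RPKM, and was 33.1 and 32.7 RPKM in Nf1-KO. The groups were far apart relative to their spread, with means of 82.6 ± 0.92 and 32.9 ± 0.28 RPKM (SD, n = 2). On the log2 scale this was a change of -1.41 ± 0.024 (standard error; limma adjusted p = 5.4e-07). Prkab1, encoding beta1, was 4.03 and 4.07 RPKM in Het and 4.56 and 3.90 RPKM in Nf1-KO, with the Het libraries between the Nf1-KO libraries. Its log2 fold change of -0.04 (95% interval -0.21 to 0.13) missed the threshold (limma adjusted p = 0.66), and its sign turned to 0.05 with values not scaled. Of the summed beta RPKM, Prkab1 held 4.69% and 4.66% in Het against 12.1% and 10.7% in Nf1-KO. The ratio of Prkab2 to Prkab1 went from 20.4 ± 0.085 to 7.82 ± 0.80 (SD, n = 2; exact permutation p = 0.33, two-sided, the smallest possible). That shift came with a lower Prkab2 level, since Prkab1 did not pass the test.

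Among the gamma subunits, the fast-muscle isoform fell and the widely expressed one was slightly higher. Prkag3, encoding gamma3, was 27.2 and 26.0 RPKM in Het and 13.5 and 11.95 RPKM in Nf1-KO. Both Nf1-KO libraries were below both Het libraries, at 0.479 of the Het mean, with a log2 fold change of -1.11 ± 0.059 (standard error; limma adjusted p = 3.1e-05). Prkag1, encoding gamma1, was 8.78 and 7.75 RPKM in Het and 10.3 and 10.2 RPKM in Nf1-KO, a log2 fold change of 0.19 (limma adjusted p = 0.036). That call was near the threshold: it was lost without Het replicate 2 (0.11, limma adjusted p = 0.12), without Nf1-KO replicate 1 (0.18, 0.11) and without Nf1-KO replicate 2 (0.20, 0.06). It is also uncertain because 43.7% of its annotated exon bases are shared with B130046B21Rik on the opposite strand. Reads of Prkag1 and of B130046B21Rik over those bases could not be told apart here. Prkag2, encoding gamma2, was the least abundant of the 10 genes, at 1.68 and 1.84 RPKM in Het and 1.23 RPKM in each Nf1-KO library. Its log2 fold change was -0.37 (limma adjusted p = 0.0027), and -0.58 with a pseudocount of 0.1, which compresses low genes less. Prkag2 shares 12.3% of its annotated exon bases with Prkag2os2 and 2.19% with Prkag2os1, both on the opposite strand. Prkag2os1 was listed at 0 in all libraries.

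As shares of the summed gamma RPKM, Prkag3 held 72.2% and 73.0% in Het against 53.9% and 51.0% in Nf1-KO. Prkag1 held 23.3% and 21.8% in Het against 41.1% and 43.7% in Nf1-KO, and its share thus moved up by 19.9 percentage points while its own level rose little. The share of Prkag2 was 4.82% ± 0.51 and 5.08% ± 0.25 (SD, n = 2), a difference within the spread of the libraries. Exact permutation tests gave p = 0.33, the smallest possible, for the shares of Prkag3 and Prkag1, and p = 0.67 for Prkag2. These shares depend on the gene length that the authors divided by. The authors' mean normalized count per RPKM, per kilobase of the longest transcript in GENCODE M21, was 79.4 for Prkag2 and 38.2 to 50.1 for the other 9 genes, so the length used for Prkag2 was longer than that transcript and its level is set lower in comparison.

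**Figure D2:**
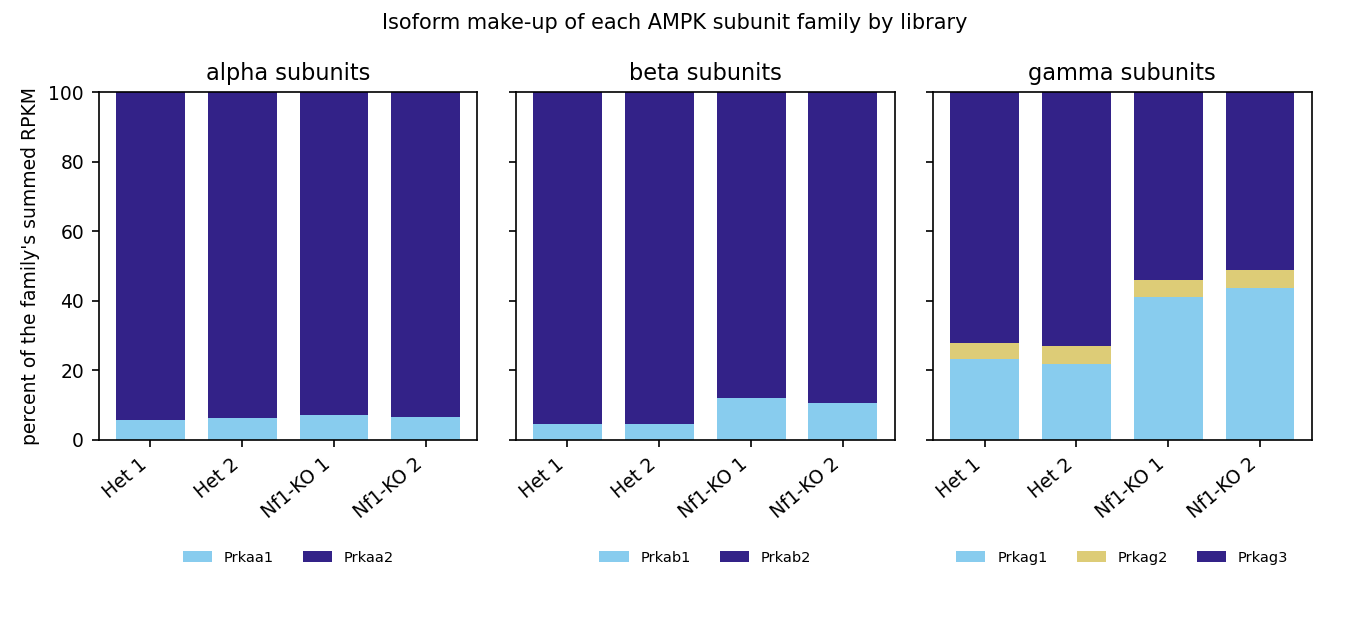
Stacked bars give, for each of the 4 libraries (horizontal axis), the percent of the summed RPKM of the alpha, beta and gamma families held by each isoform gene. Prkaa2 stays between 92.9% and 94.2%, the Prkab1 share is 4.66% to 4.69% in Het and 10.7% to 12.1% in Nf1-KO, and the Prkag1 share is 21.8% to 23.3% in Het and 41.1% to 43.7% in Nf1-KO.

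Summed over isoforms, the RNA of the 3 families fell unequally. Alpha RNA summed to 52.1 ± 0.23 RPKM in Het and 44.5 ± 0.071 RPKM in Nf1-KO (SD, n = 2). Beta RNA summed to 86.7 ± 0.95 and 37.1 ± 0.74 RPKM, which is 0.428 of the Het mean, and gamma RNA to 36.6 ± 1.5 and 24.2 ± 1.2 RPKM, 0.662 of the Het mean. Within each library, where scaling cannot act, the ratio of beta to alpha RNA was 1.66 and 1.67 in Het and 0.845 and 0.823 in Nf1-KO. Beta RNA thus exceeded alpha RNA in both Het libraries and lay below it in both Nf1-KO libraries (exact permutation p = 0.33, the smallest possible). The ratio of gamma to alpha RNA was 0.726 and 0.681 in Het and 0.563 and 0.527 in Nf1-KO. These are RNA levels, and protein was not analysed here.

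Of the LKB1 complex genes, Cab39 and Stk11 were higher and Strada was lower, each by less than Prkab2 and Prkag3 fell. Cab39, encoding the scaffold MO25alpha, was the most abundant of the 3 at 51.6 and 51.7 RPKM in Het and 60.2 and 62.8 RPKM in Nf1-KO. Both Nf1-KO libraries were higher, with a log2 fold change of 0.14 (limma adjusted p = 0.0067), and 0.25 with values not scaled. Stk11, encoding LKB1 itself, was 3.60 and 3.32 RPKM in Het and 4.33 and 4.36 RPKM in Nf1-KO, a log2 fold change of 0.18 (limma adjusted p = 0.031). As for Prkag1, the Stk11 call was lost without Het replicate 2 (0.13, limma adjusted p = 0.13), without Nf1-KO replicate 1 (0.18, 0.10) and without Nf1-KO replicate 2 (0.18, 0.097). Strada, encoding the pseudokinase that holds LKB1 in its active shape, was 3.53 and 3.08 RPKM in Het and 2.18 and 2.62 RPKM in Nf1-KO. Both Nf1-KO libraries were lower, with a log2 fold change of -0.42 ± 0.083 (standard error; limma adjusted p = 0.0072), the widest error of the 10 genes. Relative to Stk11 in the same library, Strada was 0.981 and 0.928 in Het and 0.503 and 0.601 in Nf1-KO (exact permutation p = 0.33, the smallest possible). Strada shares 2.84% of its exon bases with its neighbour Ccdc47 on the same strand, which held 19.6 to 20.7 RPKM in the 4 libraries.

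The order of levels changed with these shifts. In Het it ran Prkab2, Cab39, Prkaa2, Prkag3, Prkag1, Prkab1, Stk11, Strada, Prkaa1 and Prkag2. Stk11, Strada and Prkaa1, at 3.46 ± 0.20, 3.30 ± 0.32 and 3.13 ± 0.19 RPKM (SD, n = 2), did not differ beyond their spread. In Nf1-KO it ran Cab39, Prkaa2, Prkab2, Prkag3, Prkag1, Stk11, Prkab1, Prkaa1, Strada and Prkag2. Stk11 and Prkab1, at 4.35 ± 0.021 and 4.23 ± 0.47 RPKM, did not differ beyond their spread. Prkab2 thus went from the top to place 3, and Prkag3, which was over 3 times the level of Prkag1 in Het (ratios of 3.10 and 3.35), came within 1.31 and 1.17 times of it in Nf1-KO.

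The authors' deposited table gave the same direction for all 10 genes and an adjusted p under 0.05 for 6 of them, where 31.6% of its 13985 genes reached that threshold. In the authors' deposited table the log2 fold change was -1.44 for Prkab2, -1.17 for Prkag3, -0.35 for Prkaa2, -0.62 for Prkag2, -0.56 for Strada and 0.15 for Cab39. Prkag1 (0.21, adjusted p 0.14) and Stk11 (0.23, adjusted p 0.099) were not called in the authors' deposited table, nor were Prkaa1 (adjusted p 0.30) and Prkab1 (adjusted p 0.87). The mean normalized count there ran from 369.2 for Strada to 17650.5 for Prkaa2, and Strada, Prkag2, Prkab1, Prkaa1, Stk11 and Prkag1 (718.1) rest on the fewest reads.

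**Figure D3:**
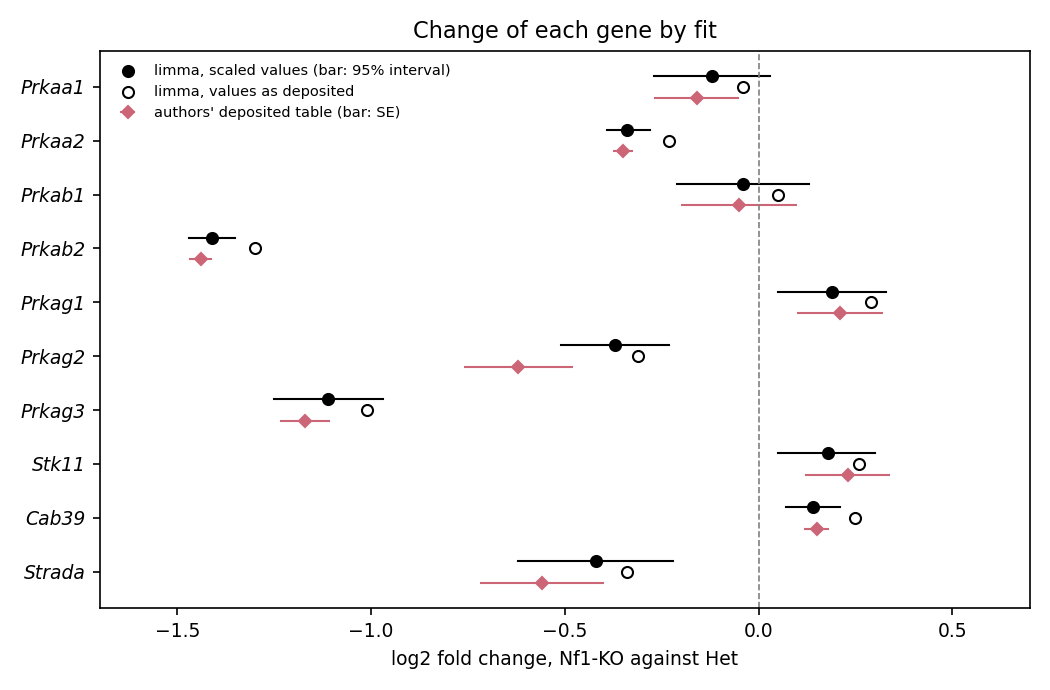
For each gene (vertical axis) the horizontal axis gives the log2 fold change of Nf1-KO against Het from limma on scaled values (filled circle, 95% interval), from limma on values as deposited (open circle) and from the authors' deposited table (diamond, standard error). Prkab2 and Prkag3 lie at -1.01 or below in all 3, and Prkab1 lies on either side of 0.

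Genes that act with AMPK were counted in 4 further lists. Of 5 other activating kinases and paralogues of the LKB1 complex, 2 could be tested and both were lower, where 26.8% of all tested genes were lower. Map3k7, which encodes the kinase TAK1, was 13.5 and 13.0 RPKM in Het and 10.3 and 10.2 RPKM in Nf1-KO (log2 fold change -0.44, limma adjusted p = 1.8e-04). Cab39l, the paralogue of Cab39, fell while Cab39 rose, from 3.87 and 3.61 to 2.87 and 2.80 RPKM (log2 fold change -0.39, limma adjusted p = 0.0015). The calcium-dependent activators were barely detected, with Camkk2 at 0.07 to 0.09 RPKM and Camkk1 at 0.05 to 0.18 RPKM, and the Strada paralogue Stradb held 0.04 to 0.14 RPKM.

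Of 12 AMPK-related kinases that LKB1 also phosphorylates, 8 could be tested, with 2 higher, 2 lower and a median log2 fold change of -0.02. Sik1, a salt-inducible kinase, rose from 3.01 and 2.97 to 11.7 and 12.2 RPKM (log2 fold change 1.61, limma adjusted p = 1.9e-06), and Snrk rose by 0.22 on the log2 scale. The microtubule affinity kinases Mark3 (-0.15) and Mark4 (-0.17) lost their calls with values not scaled (-0.05 and -0.08, limma adjusted p 0.24 and 0.28). Of 6 phosphatase and folliculin partner genes, 5 were tested, with 3 higher and 1 lower and a median of 0.14. Fnip1, a partner of folliculin that binds AMPK, rose from 8.51 and 9.37 to 14.5 and 14.8 RPKM (log2 fold change 0.56), and Ppp2ca, a catalytic subunit of protein phosphatase 2A, from 56.5 and 56.4 to 87.4 and 86.4 RPKM (0.51). Flcn rose by 0.14, and Ppm1a (-0.15) lost its call with values not scaled (-0.04, limma adjusted p = 0.14).

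The 19 genes of known AMPK substrates were all tested, with 8 higher, 6 lower and 5 not past the threshold (median log2 fold change 0.07). With values not scaled these were 11 higher and 2 lower. The 2 Rab GTPase-activating proteins that act on glucose transporter traffic moved in opposite directions. Tbc1d1 fell from 18.3 and 17.4 to 8.96 and 8.55 RPKM (log2 fold change -1.05, limma adjusted p = 9.9e-06), and Tbc1d4 rose from 3.40 and 3.45 to 19.6 and 19.7 RPKM (2.13, limma adjusted p = 5.4e-07). Lipe, encoding hormone-sensitive lipase, rose by 0.92 on the log2 scale, and the lipogenic factor gene Srebf1 fell by 0.79 on the log2 scale. Higher calls in 8 of 19 tested substrates, 3 of 5 phosphatase and folliculin partner genes and 2 of 8 AMPK-related kinases stand beside 23.6% of all tested genes, and the 6, 1 and 2 lower beside 26.8%.

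Fibre type and other cells moved with the same groups. Of all tested genes 26.8% were lower, and the 10 fast fibre markers were all lower. Their median log2 fold change was -0.71, with a range from Pvalb at -1.74 to Tnni2 at -0.20, so Prkab2 (-1.41) and Prkag3 (-1.11) lay inside that range and Prkaa2 (-0.34) near its upper end. Their sum was 61000 to 61200 RPKM in Het and 44900 RPKM in both Nf1-KO libraries. Of 9 slow fibre markers 8 were higher (median 0.35), where 23.6% of all tested genes were higher. Casq2 led them at 1.85 and went from 11.4 and 11.7 to 48.4 and 46.9 RPKM. The slow myosin heavy chain Myh7 was 1.53 and 1.66 RPKM in Het and 1.47 and 1.36 RPKM in Nf1-KO (log2 fold change -0.17, limma adjusted p = 0.056). The slow fibre sum was 140 to 141 RPKM in Het and 212 to 214 RPKM in Nf1-KO. In whole muscle, fewer fibres of a type and less RNA per fibre cannot be told apart.

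Markers of cells outside the fibre were summed in the same way. Their called counts stand beside 23.6% higher and 26.8% lower among all tested genes. Immune markers summed to 11.1 to 11.2 RPKM in Het and 31.5 to 31.6 RPKM in Nf1-KO. Most of both sums was Lyz2 alone, at 7.47 and 7.38 RPKM in Het and 24.35 and 24.62 RPKM in Nf1-KO. Of the 8 immune markers 4 were higher, the others were below the filter and not tested, and Adgre1 was listed at 0 in all libraries. Schwann cell markers summed to 15.5 to 15.9 and 33.8 to 35.3 RPKM, with 6 of 7 higher (Ngfr was not tested). Fibroblast markers summed to 91.3 to 93.9 and 135 to 136 RPKM, with 5 of 6 higher. Their log2 fold changes ran from -0.08 for Dpt (limma adjusted p = 0.15) to 1.56 for Col1a1. Col1a1 went from 10.70 and 10.69 to 35.85 and 36.07 RPKM and held much of the rise in that sum. Endothelial markers summed to 75.9 to 76.1 and 82.0 to 83.4 RPKM (2 higher, 1 lower of 6). The endothelial median log2 fold change was 0.03, and 0.14 with values not scaled. Adipocyte markers summed to 2.42 to 2.67 and 2.68 to 2.89 RPKM (1 of 5 higher, 2 tested), and satellite cell markers to 1.78 to 1.82 and 2.54 to 2.59 RPKM (1 of 4 higher, 2 tested). Of the blood markers Hba-a2 and Hbb-b1 were listed at 0 and Alas2 did not pass. The part of fibre type and of these cells in the levels of the 10 genes was not tested.

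**Figure D4:**
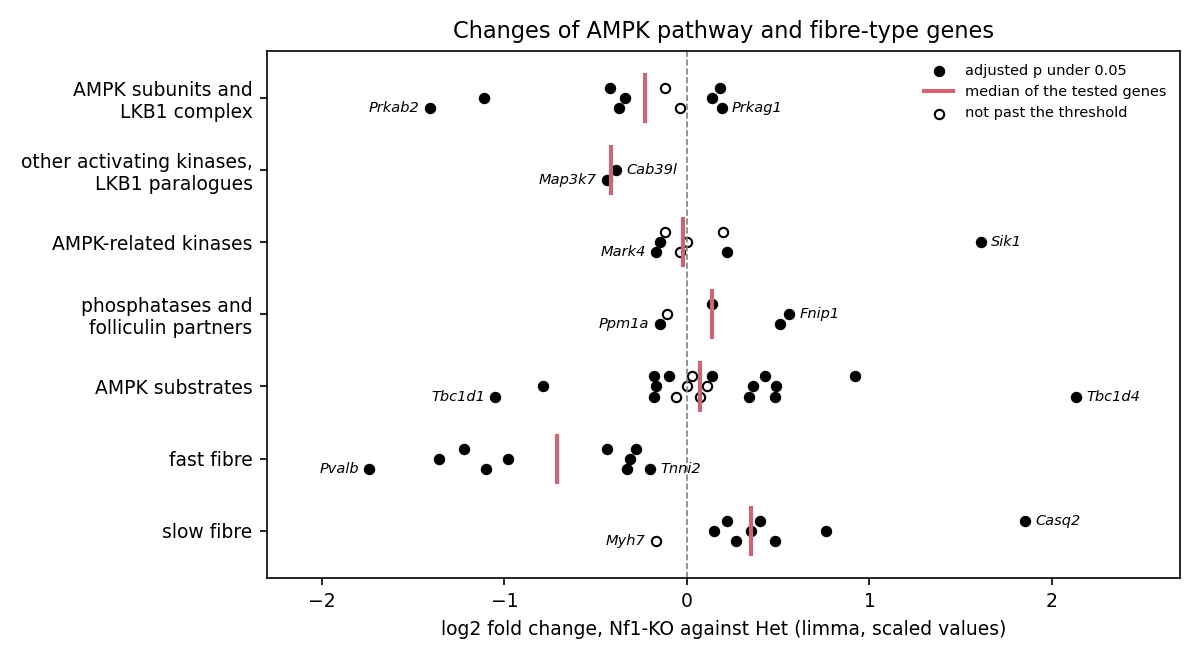
Each point is 1 tested gene's log2 fold change of Nf1-KO against Het (horizontal axis) by list (vertical axis), filled where the limma adjusted p is under 0.05, with the list's median as a red line. The AMPK subunit and LKB1 complex genes run from Prkab2 at -1.41 to Prkag1 at 0.19, the substrates from Tbc1d1 at -1.05 to Tbc1d4 at 2.13, and the fast fibre genes all lie below 0.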

How the data were processed

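Per the submitters' processing notes, STAR 2.4.2a, DESeq2 and build mm9 were used; counter, annotation and strand setting are not given in the sources used here. Per the labels' protocols, libraries were made from column-purified total RNA with a TruSeq RNA v2 kit. The authors deposited 1 value per gene and library (34682 rows), read here as RPKM because sums were 532315 to 547144 and counts per RPKM followed gene length. The authors' deposited table gives a signal (mean of size-factor-normalized counts), a log2 fold change with its standard error, a test score, and a p-value with its adjusted value.

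Rows named by a number (33) were dropped, and repeated names were reduced to their most abundant row. RPKM was scaled by a trimmed mean of log ratios to the geometric mean library (30% of ratios, 5% of abundances at each end; factors 0.964, 0.963, 1.04 and 1.04). Genes reaching 0.5 RPKM in 2 or more libraries were fitted on log2(RPKM + 1) with limma 3.58.1 (R 4.3.3, variance trend, no covariate), with Benjamini-Hochberg adjustment over all tested genes and a threshold of 0.05. Fold changes on this scale understate those of low genes. The fit was run on simulated data with fewer changed genes and with larger changes than most members showed. That run therefore did not check calls of small changes. Means, shares and ratios use RPKM as deposited. The estimated depths rest on GENCODE M21 lengths, and no count test was run on them. Of all rows, 44.7% were at 0 in all libraries, so 0 is given only as listed. Sequences and exon overlaps come from GRCm38, not mm9.

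Members, lists and tests were chosen with earlier results of these data known. All 10 members are named, and from each other list up to 4 genes with the largest change past the threshold, or the most abundant where none passed (up to 2 for cell markers). Genes under the filter, paralogues and the ends of ranges were named after their values were seen. Alternatives were 3 other scalings, a pseudocount of 0.1, no filter or 1 RPKM in every library, no variance trend, a replicate block, summed rows, an adjusted p of 0.01 and leaving out each library.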

Additional observations from a re-analysis of the deposited data

How the results depend on the processing

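Of 322 values under 14 alternative settings, 285 were counted as unchanged. For fold changes this meant the same direction and the same side of the threshold, and for counts a value within 1.5 times. For isoform shares it meant the same direction and a shift smaller than the larger group SD. Some values could not change: each member has a single row, so summing rows left its RPKM and share as they were. The shares of Prkaa1 and Prkaa2, and of Prkab1 and Prkab2, mirror each other, and all were counted. The calls of Prkaa2, Prkab2, Prkag2, Prkag3 and Cab39 held in all 14 fits. The count of members higher was 3 and became 1 with no filter and 1 at an adjusted p of 0.01, and ran from 1 to 3 when each library was left out. Without a filter Prkag1 (limma adjusted p 0.13), Stk11 (0.076) and Strada (0.057) lost their calls. Prkag1 also lost its call with no variance trend (0.06). Prkab1 turned from -0.04 to 0.05 with values not scaled and to 0.05 without Nf1-KO replicate 2, and ran from -0.13 to 0.05 over the libraries left out. The difference in the Prkag2 share turned from 0.264 to -0.0937 percentage points without Het replicate 1, and ran from -0.0937 to 0.622 over the libraries left out. The cause was not tested.

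Among AMPK-related kinases 2 genes were lower; this became 0 with values not scaled, 1 with quantile normalization, 1 with no filter, 1 with no variance trend and 1 with the replicate block, and 0 to 2 with each library left out. The 1 phosphatase gene lower (Ppm1a) became 0 and the 6 substrates lower became 2 with values not scaled; the latter ran from 3 to 4 with each library left out (3 without Het replicate 1 and 3 without Nf1-KO replicate 1).

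The replicate numbers share only a number: across genes, libraries with the same number deviated from their group means with a correlation of -0.018. A fit with the replicate block called 5206 genes instead of 5395, with the same 3 members higher and 5 lower, and Nf1 lost its call (-0.19, limma adjusted p 0.052).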
